A study of Rattus norvegicus with 57 samples.

Results

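A set of genes that p53 is known to switch on, 10 of the 14217 named genes on the array, was followed in rat kidney cortex after one injection of cisplatin, a platinum drug that forms crosslinks in DNA and damages kidney tubules. They are Ccng1, Plk2, Phlda3, Mdm2, Sesn1, Sesn2, Tp53inp1, Fas, Gadd45a and Gdf15. The set was chosen from textbook p53 targets together with values measured on these arrays, namely the differences of each dose from same-day controls on days 3, 5, 8 and 26. At 3 mg/kg on days 3, 5 and 8 Sesn1 was lower while the others were higher. Those differences, and the comparisons between doses and between days that use the same arrays, are therefore given as a description of the 10 genes, with no p-value. A count of genes past the threshold of the fit is given beside the share of all genes past it, and is no test of the set. Gaps between the ranges of groups were not counted over all genes, so each describes only the gene named. Each gene was read from 1 probe set, a group of short oligonucleotides near the end of its transcript, taken as the one with the highest mean level where a gene had several. Male Han Wistar [Crl:WI(Han)] rats of 8 weeks received cisplatin at 0, 1 or 3 mg/kg by intraperitoneal injection, the 0 mg/kg animals being given saline alone, and kidneys were taken on day 3, 5, 8 or 26. The 57 arrays, each from its own animal, number 5 in each of the 12 groups of dose and day, except 3 for 1 mg/kg on day 5 and 4 for controls on day 26. The design text gives 6 animals per group. No animal carried a transgene or deletion according to the labels.

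The transcription factor p53 is held at low levels in resting cells, largely by Mdm2, the ubiquitin ligase that marks it for degradation. DNA damage releases p53, which binds response elements made of pairs of a short half-site and raises transcription of genes that halt the cell cycle, repair DNA, limit growth signalling or start cell death, Mdm2 among them. In the kidney this response is well known after cisplatin, where tubule cells take up the drug and are the main site of injury.

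The promoters of 9 of the 10 genes were matched in RefSeq on build GRCr8, each spanning 250 bases before the annotated start to 50 after it; Gdf15 had 2 entries. They were searched for the p53 half-site consensus, which reads the same on both strands. A half-site was found in 3 of these genes, Ccng1, Sesn1 and Gadd45a, with 1 match each, and in 7.98% of all 33469 promoters of this length. No promoter of the 9 genes held 2 half-sites up to 13 bases apart, the spacing of a full element, and 0.0598% of all promoters did. The 250 bases before the start are printed 5′ to 3′ for Sesn1, the gene that was lower, and for Ccng1, Plk2 and Phlda3, whose levels were still higher on day 26. Capitals mark the half-sites.
Sesn1 promoter, chr20:46948469-46948718, plus strand: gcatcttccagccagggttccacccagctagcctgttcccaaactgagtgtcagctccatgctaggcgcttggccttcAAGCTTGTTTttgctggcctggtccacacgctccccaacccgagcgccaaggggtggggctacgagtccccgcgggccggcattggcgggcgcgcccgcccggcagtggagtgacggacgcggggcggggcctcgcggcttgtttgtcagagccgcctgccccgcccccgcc
Ccng1 promoter, chr10:25684877-25685126, minus strand: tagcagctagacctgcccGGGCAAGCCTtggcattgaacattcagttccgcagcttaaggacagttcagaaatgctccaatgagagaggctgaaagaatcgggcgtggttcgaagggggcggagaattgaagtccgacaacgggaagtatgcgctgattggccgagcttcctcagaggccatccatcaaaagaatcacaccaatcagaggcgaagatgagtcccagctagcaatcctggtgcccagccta
Plk2 promoter, chr2:43702286-43702535, plus strand: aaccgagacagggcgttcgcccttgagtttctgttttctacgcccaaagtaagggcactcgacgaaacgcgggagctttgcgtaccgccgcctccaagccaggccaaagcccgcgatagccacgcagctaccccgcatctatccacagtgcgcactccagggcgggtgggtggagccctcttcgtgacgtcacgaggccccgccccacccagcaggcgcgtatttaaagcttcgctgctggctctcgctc
Phlda3 promoter, chr13:49744753-49745002, plus strand: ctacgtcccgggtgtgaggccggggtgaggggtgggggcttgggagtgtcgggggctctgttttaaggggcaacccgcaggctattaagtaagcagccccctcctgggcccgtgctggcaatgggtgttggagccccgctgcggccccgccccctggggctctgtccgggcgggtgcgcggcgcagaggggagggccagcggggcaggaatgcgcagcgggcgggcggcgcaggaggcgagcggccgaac
The match in Sesn1 began 172 bases before the start and that in Ccng1 began 232 bases before it. In Gadd45a the half-site GGGCTAGCCC, on the minus strand of chromosome 4, began 48 bases before the start. The windows of Plk2 and Phlda3, which differed most from controls on day 3 beside Ccng1, had no match, and that says only that these letters are not in the window.

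Array medians ran from 20.3 to 26.2 and arrays of a group correlated at 0.961 to 0.993. All 6 proximal tubule markers were tested, and on day 8 Aqp1 was higher at 3 mg/kg by 0.41 ± 0.09 in log2(signal + 16), Slc5a2 was lower, at -1.25 ± 0.15, and 4 did not pass an adjusted p of 0.05 in limma (standard errors of the fit). Their summed signal, to which brighter genes add most, was 12352 to 14567 at 3 mg/kg, against 11675 to 13515 in controls. On that day both thick ascending limb markers (Umod, Slc12a1) and both distal tubule markers (Slc12a3, Calb1) were lower at 3 mg/kg, with summed signals of 28.5 to 2081 against 3799 to 5234 in controls for the limb and 614 to 2065 against 3120 to 3689 for the distal tubule. Of 3 collecting duct markers 2 were lower (sums of 566 to 2292 at 3 mg/kg and 2024 to 2432 in controls), as was 1 of 2 tested for podocytes and 1 of 2 for endothelium. Of 4 macrophage markers 3 were higher, with sums of 224 to 356 at 3 mg/kg and 168 to 214 in controls, as were both neutrophil markers tested (20.9 to 285 against 12.3 to 44.1) and 2 of 3 fibroblast markers (1865 to 2449 against 1065 to 1421). At 3 mg/kg on day 8, 37.3% of all genes were called, so counts such as 1 of 2 are near that share and nothing is read from them. On day 3 both erythroid markers were lower, where 9.85% of all genes were called. Their sums were 506 to 1080.1 at 3 mg/kg and 1627 to 2770 in controls. On day 26, 1 of 2 lymphocyte markers tested was higher at 3 mg/kg, where 0.753% of all genes were called. Lymphocyte sums were 33.0318 to 59.9989 at 3 mg/kg and 21.6181 to 26.4852 in controls. No marker of any other list was called that day, although macrophage sums were 177.016 to 265.67 at 3 mg/kg and 144.452 to 169.291 in controls. The 3′/5′ ratio of the actin control probe sets, a measure of RNA integrity, averaged 5.89 ± 0.10 at 3 mg/kg and 4.66 ± 0.25 in controls on day 3 (SD, n = 5 each), with no overlap. The part of the marker shifts in the results was not tested. For the actin ratio, fits with it as a covariate are given further below. In a homogenate, fewer cells of a type and less RNA per cell cannot be told apart.

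Cyclin G1, encoded by Ccng1, recruits a phosphatase to Mdm2 and is among the most responsive p53 targets in rodent tissue. On day 3 its signal was 2572, 2631, 2487, 2992 and 2677 in the 3 mg/kg animals, against 730.3, 878, 644, 724 and 714 in controls. Every dosed animal lay far above every control. Over days 3, 5, 8 and 26 the signal ratio was 3.62, 3.39, 2.82 and 1.35, and the difference in log2(signal + 16) was 1.84 ± 0.09, 1.73 ± 0.09, 1.45 ± 0.09 and 0.43 ± 0.10 (standard error of the fit). At 1 mg/kg the same signal was 1451, 1484, 1533, 1321 and 1618 on day 3, again above all controls, a difference of 0.99 ± 0.09. By day 8 the 1 mg/kg animals stood at 1116, 1019, 1106, 1197 and 1039, against 709, 664, 711, 731 and 809 in controls, with a difference of 0.59 ± 0.09. On day 26 they averaged 728 ± 72.5 against 731 ± 108 in controls (SD, n = 5 and 4), and the ranges overlapped.

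**Figure D1:**
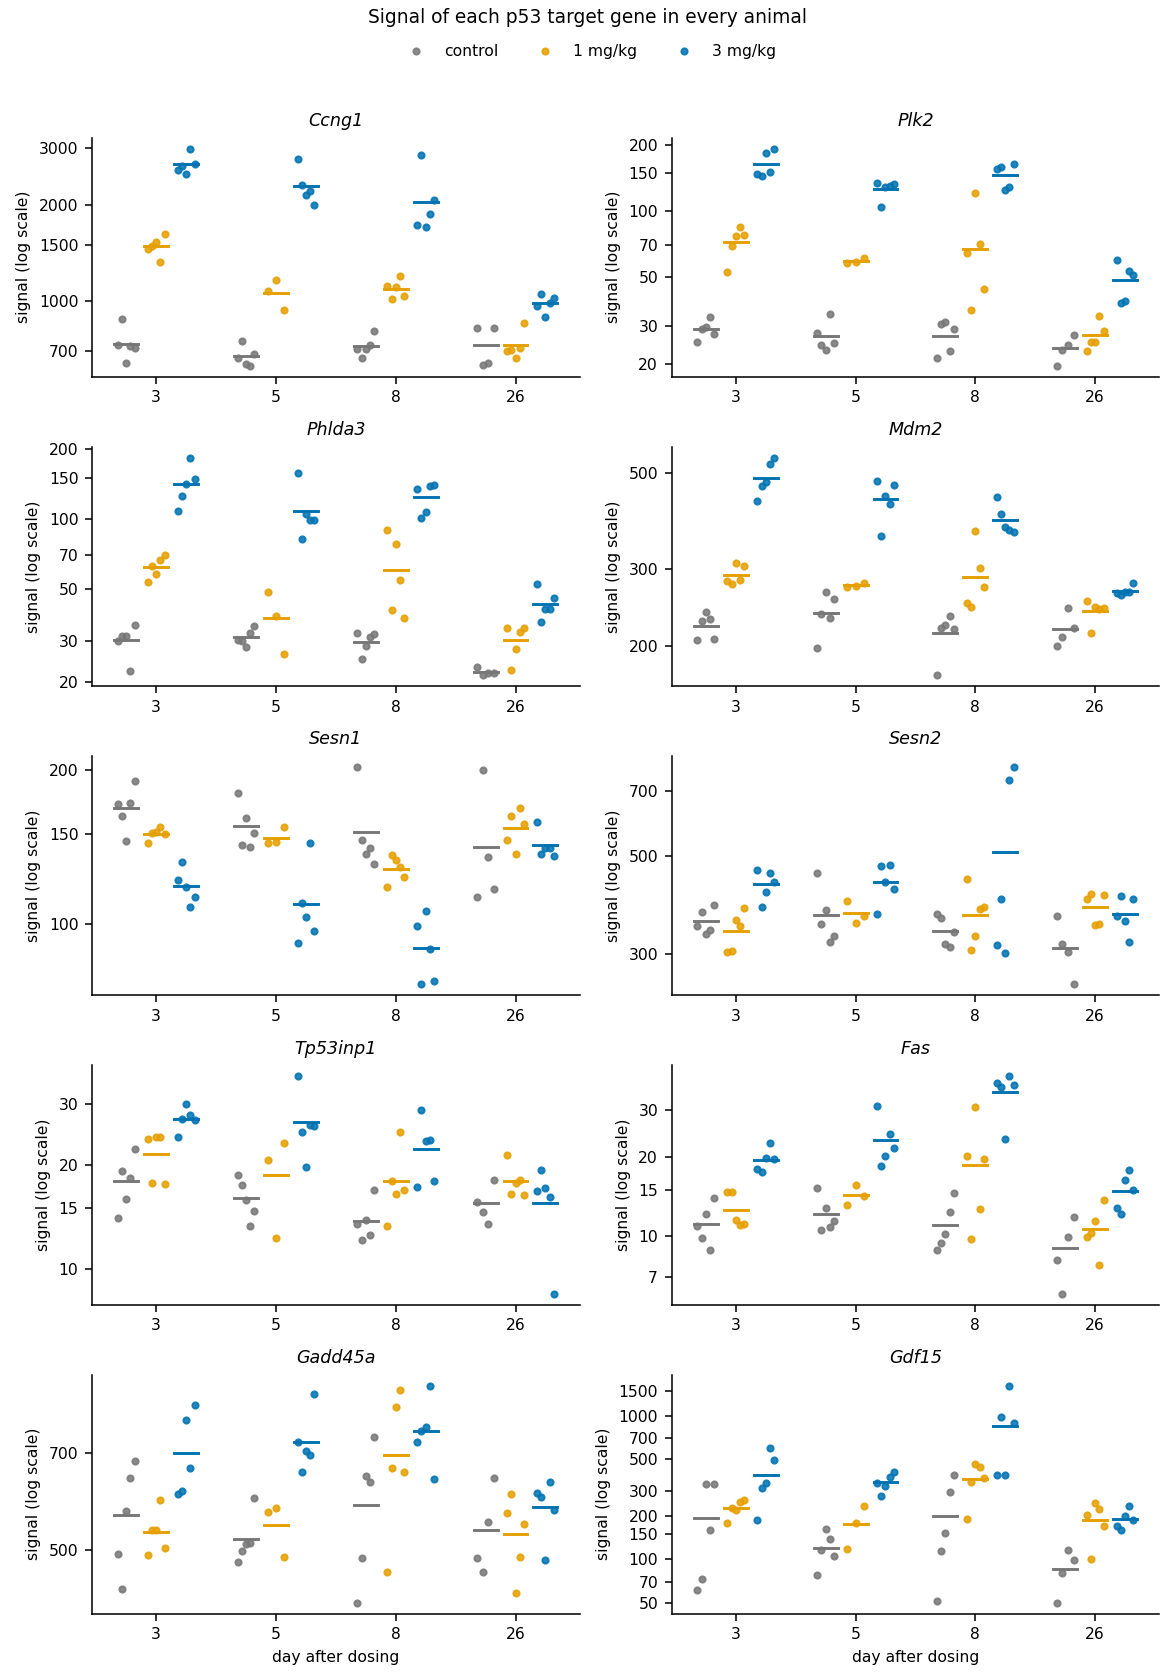
Signal of each of the 10 genes in every animal (points, log axis) by day, with control, 1 mg/kg and 3 mg/kg animals side by side and the group's arithmetic mean as a bar. Ccng1, Plk2, Phlda3 and Mdm2 stand in the order of dose on days 3, 5 and 8, whereas Sesn1 has its lowest points at 3 mg/kg.

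Plk2, a polo-like kinase that acts in centriole duplication and in a checkpoint of cells in S phase, was low in controls and responded strongly. Its day 3 signal was 149, 145, 185, 152 and 194 at 3 mg/kg, against 25.3, 28.9, 29.6, 32.8 and 27.5 in controls. The groups were far apart, and they remained apart on each later day. Signal ratios were 5.71, 4.71, 5.47 and 2.05 on days 3, 5, 8 and 26, with log2 differences of 2.0 ± 0.14, 1.73 ± 0.14, 1.93 ± 0.14 and 0.69 ± 0.14. On day 26 the individual signals were 59.7, 37.9, 39.0, 53.4 and 51.0 at 3 mg/kg, against 19.6, 23.1, 24.3 and 27.3 in controls. At 1 mg/kg the log2 differences were 0.97 ± 0.14, 0.82 ± 0.16, 0.87 ± 0.14 and 0.12 ± 0.14 over the same days.

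Mdm2, the negative regulator of p53, had 429, 465, 475, 524 and 541 at 3 mg/kg on day 3, against 207, 229, 239.8, 230.4 and 208 in controls. All dosed animals were above all controls, as on days 5 and 8. The log2 difference was 1.07 ± 0.08 on day 3, 0.82 ± 0.08 on day 5 and 0.82 ± 0.08 on day 8. For 1 mg/kg it was 0.37 ± 0.08, 0.21 ± 0.09 and 0.39 ± 0.08. Gadd45a, whose protein binds cyclin-dependent kinase complexes and PCNA after DNA damage, differed less. Its day 5 signal was 727, 655, 705, 695 and 859 at 3 mg/kg, against 479.8, 499, 510.2, 512 and 599 in controls. On that day the groups were apart, with a difference of 0.47 ± 0.13, whereas on days 3 (0.31 ± 0.13) and 8 (0.38 ± 0.13) they overlapped. On day 8 the controls alone spread from 416 to 739.8.

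Phlda3 encodes a small lipid-binding protein that keeps the survival kinase Akt from the membrane in human and mouse cells. On day 3 its signal was 108, 125, 142, 183 and 148 at 3 mg/kg, against 29.97, 31.3, 31.5, 22.3 and 35.1 in controls. No control reached the lowest dosed animal. The log2 difference was 1.76 ± 0.13, 1.38 ± 0.13, 1.61 ± 0.13 and 0.64 ± 0.14 on days 3, 5, 8 and 26. At 1 mg/kg it was 0.77 ± 0.13 on day 3, 0.17 ± 0.16 on day 5 and 0.68 ± 0.13 on day 8. The 3 animals of 1 mg/kg on day 5 gave 48.5, 38.1 and 26.2, against 30.2, 29.8, 28.2, 32.3 and 34.5 in controls, so that 1 of them lay under every control and 2 above.

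Fas, the death receptor that binds Fas ligand, was dim: its probe set lay above the 40th percentile of the array on 30 of 57 arrays, 15 of them among the 15 animals given 3 mg/kg on days 3 to 8. The others were 3 of 5 at 3 mg/kg on day 26, 7 at 1 mg/kg and 5 in controls. Its signal on day 8 was 38.1, 36.7, 23.4, 40.3 and 37.3 at 3 mg/kg, against 8.88, 9.37, 10.1, 12.3 and 14.5 in controls. The lowest dosed animal stood apart from its 4 companions but above all controls. Differences in log2(signal + 16) were 0.39 ± 0.10 on day 3, 0.47 ± 0.10 on day 5 and 0.91 ± 0.10 on day 8, and signal ratios were 1.75, 1.90 and 3.18. Tp53inp1, whose protein promotes p53-dependent death and autophagy, was also dim, above that percentile on 54 of 57 arrays. On day 3 it read 24.0, 27.1, 29.9, 27.8 and 27.0 at 3 mg/kg, against 14.0, 19.2, 15.9, 18.3 and 22.3 in controls. The ranges were apart on days 3, 5 and 8, with differences of 0.35 ± 0.09, 0.40 ± 0.09 and 0.35 ± 0.09.

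Sestrins restrain the growth kinase complex mTORC1 and lower oxidative stress. Sesn1, which p53 is known to raise, stood lower. On day 3 its signal was 122, 132, 118, 108 and 113 at 3 mg/kg, against 171, 163, 145, 172 and 191 in controls. Each dosed animal was below each control. On day 5 the values were 91.7, 109.5, 103, 144 and 96.8 at 3 mg/kg, against 180.04, 143, 161, 141 and 150.1 in controls. Here 4 of the 5 dosed animals were below all controls and replicate 4 lay among them. Day 8 gave the lowest levels, 98.9, 76.0, 106, 89.3 and 77.1 at 3 mg/kg, against 203, 146, 137, 141 and 131 in controls, again without overlap. The log2 differences were -0.45 ± 0.10, -0.46 ± 0.10 and -0.66 ± 0.10, and the signal ratios 0.704, 0.703 and 0.591. By day 26 the groups overlapped, with 158, 137, 140.4, 141 and 136 at 3 mg/kg, against 113, 200.2, 135 and 117 in controls.

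At 1 mg/kg, over days 3, 5, 8 and 26, Sesn1 differed from same-day controls by -0.15 ± 0.10, -0.06 ± 0.12, -0.20 ± 0.10 and 0.14 ± 0.11, and the groups overlapped on every day. Ordered by group mean, the 3 lowest levels of Sesn1 were those of 3 mg/kg on day 8 (89.4 ± 13.2), day 5 (109 ± 20.7) and day 3 (119 ± 9.33), followed by 1 mg/kg on day 8 (128 ± 7.4; SD, n = 5 each). Neighbours in this order overlapped in range. The remaining 8 group means ran from 141 to 168, with controls of day 3 highest, and neighbours among them overlapped too.

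Sesn2, the sestrin that senses leucine and is also raised by the integrated stress response, was on the other side. Its signal on day 3 was 465, 383, 415, 457 and 436 at 3 mg/kg, against 348, 373, 333, 339.6 and 388 in controls, so that 4 of 5 dosed animals were above all controls. The difference was 0.26 ± 0.14 on day 3 and 0.24 ± 0.14 on day 5. On day 8 the dosed animals split, with 741 and 792 in replicates 4 and 5 and 315, 399 and 303 in the other 3, against 370.2, 361, 317, 312 and 336 in controls. That difference was 0.45 ± 0.14, and the lowest dosed animal was below every control.

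Gdf15 encodes a secreted cytokine of the TGF-beta family that acts on the brain stem to reduce feeding. It varied most among undosed animals. Its day 3 signal was 189.7, 316, 340.5, 599 and 494 at 3 mg/kg, against 61.5, 72.5, 334, 161 and 339 in controls, with overlap. Replicate 1 was the lowest animal in 8 of the 12 groups, as the labels number them. On day 8 the values were 392, 983, 389.8, 1641 and 897 at 3 mg/kg, against 51.3, 115, 152, 294 and 386 in controls, and the groups just parted. The log2 differences were 1.13 ± 0.37, 1.43 ± 0.37 and 2.08 ± 0.37 on days 3, 5 and 8.

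**Figure D2:**
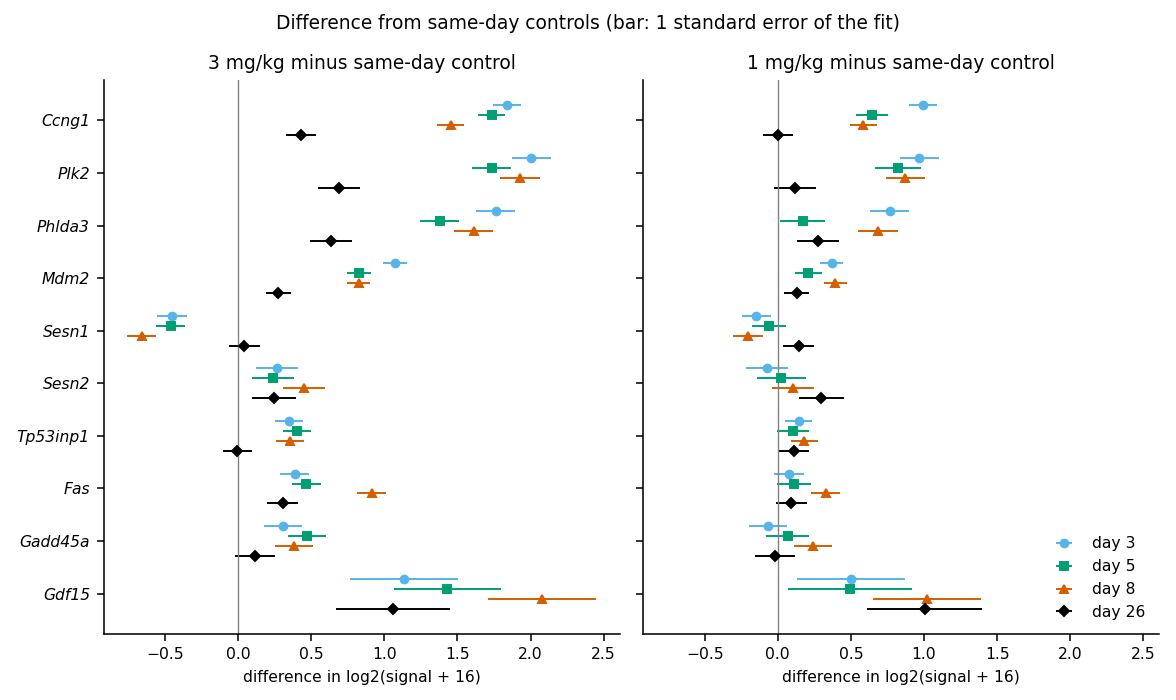
Difference of 3 mg/kg (left) and 1 mg/kg (right) from same-day controls in log2(signal + 16) for the 10 genes, with a symbol per day and bars of 1 standard error of the fit. Sesn1 is the gene left of 0 on days 3, 5 and 8 at 3 mg/kg, from -0.45 to -0.66, while Plk2 reaches 2.0.

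A gene was called where its adjusted p in limma, over all 11683 genes tested, was under 0.05. For 3 mg/kg against controls, 8 of the 10 genes were called on day 3, where 9.85% of all genes were, 9 on day 5 against 8.8% of all genes, and 10 on day 8 against 37.3%. In each case 1 of these, Sesn1, was lower. Sesn2 and Gadd45a were not called on day 3 and Sesn2 was not on day 5. The median difference of the 10 was 0.73, 0.65 and 0.87, beside 0.04, 0.00 and 0.04 over all genes. For 1 mg/kg, 4 were called on day 3 (Ccng1, Plk2, Phlda3 and Mdm2) against 0.0942% of all genes, 2 on day 5 (Ccng1 and Plk2) against 0.0171%, and the same 4 as on day 3 again on day 8 against 0.522%. Because the set was picked on these contrasts, nothing is read from these shares. The day 5 count at 1 mg/kg, with 3 animals, was 0 without its replicate 1 or 2 and 1 without its replicate 3 or control replicate 2, 3 or 5. Without 1 mg/kg replicate 3 the day 8 count was 2, Ccng1 and Plk2.

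On day 26, 3 of the 10 genes were called higher at 3 mg/kg than in controls, against 0.753% of all genes. Lymphocyte and macrophage marker sums were also higher at 3 mg/kg that day, as given above, and their part in these calls was not tested. Plk2 was higher by 0.69 ± 0.14, Phlda3 by 0.64 ± 0.14 and Ccng1 by 0.43 ± 0.10, and in each all 5 dosed animals lay above all 4 controls. Phlda3 signals were 52.6, 36.1, 41.0, 40.9 and 45.5 at 3 mg/kg, against 23.0, 21.3, 21.9 and 21.7 in controls. Mdm2 (0.28 ± 0.09), Fas (0.30 ± 0.11) and Gdf15 (1.06 ± 0.39) were not called, although their groups did not overlap either. Sesn1 differed by 0.04 with a 95% interval of -0.17 to 0.25. These calls are few and rest on small groups: none was made without 3 mg/kg replicate 1, and Ccng1 alone without control replicate 1. With the actin ratio as a covariate 1 call was left, Plk2; that ratio averaged 5.79 ± 0.72 at 3 mg/kg and 5.10 ± 0.57 in controls on day 26 (SD, n = 5 and 4).

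At 1 mg/kg on day 26 none of the 10 was called, against 0.00856% of all genes, and limma gave Gdf15 the largest difference, 1.00 ± 0.39, with 4 of 5 animals above all controls. In control rats, day 26 against day 3 gave no call among the 10, against 2.03% of all genes. Controls of day 26 had Sesn1 at 141 ± 40.5 and those of day 3 at 168 ± 16.6 (SD, n = 4 and 5), a difference of -0.26 ± 0.11 in limma. That difference was called once control day 26 replicate 2, the highest of its group at 200.2, was left out. Between these controls Gdf15 differed by -0.80 ± 0.39, Phlda3 by -0.27 ± 0.14 and Ccng1 by -0.02 ± 0.10.

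The 2 doses were also compared directly, with the same dosed animals whose differences from controls chose the set, so these values too are a description. On day 3, 4 of the 10 genes were called higher at 3 mg/kg than at 1 mg/kg, against 3.12% of all genes called. They were Plk2 by 1.04 ± 0.14, Phlda3 by 1.00 ± 0.13, Ccng1 by 0.84 ± 0.09 and Mdm2 by 0.70 ± 0.08. In all 4 every 3 mg/kg animal was above every 1 mg/kg animal, a separation that was not counted over all genes. A fit of those day 3 groups alone, or one with array weights, called 8, with Sesn1, Sesn2, Fas and Gadd45a added.

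On day 5, 5 of the 10 were called between the doses, against 3.97% of all genes: Ccng1, Plk2, Phlda3 and Mdm2 were higher at 3 mg/kg and Sesn1 was lower. Sesn1 had 91.7, 109.5, 103, 144 and 96.8 at 3 mg/kg and 143.5, 144 and 154 at 1 mg/kg, a difference of -0.40 ± 0.12. The call was lost in 6 of the 8 fits that left out 1 of these animals, namely without any of the 3 animals of 1 mg/kg or without 3 mg/kg replicate 1, 3 or 5. On day 8, 7 of the 10 were called, against 23.1% of all genes. Sesn1 was 98.9, 76.0, 106, 89.3 and 77.1 at 3 mg/kg and 118, 136, 133, 129 and 123 at 1 mg/kg, with no overlap and a difference of -0.46 ± 0.10. Fas was higher by 0.59 ± 0.10 and Gdf15 by 1.06 ± 0.37. For Sesn2 the difference on day 8 was 0.34 with an interval of 0.06 to 0.63, and for Gadd45a 0.14 with an interval of -0.12 to 0.40.

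By day 26 limma called none of the 10 between the doses, against 0% of all genes, with 0 genes called in all and 1197 at an unadjusted p under 0.05. Plk2 averaged 48.2 ± 9.45 at 3 mg/kg and 27.0 ± 4.03 at 1 mg/kg, Ccng1 984 ± 60.9 and 728 ± 72.5 (SD, n = 5 each), and in both the groups did not overlap. Their differences were 0.57 ± 0.14 and 0.43 ± 0.09. A call was made when a single animal was left out, of Ccng1 without 1 mg/kg replicate 5 and of Plk2 without 3 mg/kg replicate 2.

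The change of the difference between 3 mg/kg and controls from one day to the next was fitted as an interaction. It is built from the contrasts that chose the set, and genes picked for being high or low on days 3 to 8 are favoured to lie nearer to 0 on a later day, so it describes the 10 genes and tests nothing about them. From day 3 to day 5 limma called it for none of the 10, against 1.52% of all genes, the largest estimate being -0.38 ± 0.19 for Phlda3. For Sesn1 that change was -0.01 with an interval of -0.29 to 0.28. From day 5 to day 8 it was called for 1 gene, against 16.3% of all genes: Fas, by 0.45 ± 0.14. That call was lost without 3 mg/kg replicate 2 of day 5 or replicate 4 of day 8, and Ccng1 joined it without replicate 2 of day 8. From day 8 to day 26 it was called for 6 of the 10, against 15% of all genes. The change was -1.24 ± 0.20 for Plk2, -1.02 ± 0.14 for Ccng1, -0.98 ± 0.20 for Phlda3, -0.61 ± 0.15 for Fas and -0.55 ± 0.12 for Mdm2. For Sesn1 it was 0.70 ± 0.15.

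Animals of a group differed on day 8. Havcr1, the gene of the kidney injury marker KIM-1, read 912, 32.4, 1085, 32.9 and 17.6 in the 1 mg/kg animals, against 4.95, 7.33, 10.2, 5.47 and 1.73 in controls. Phlda3 was highest in the same replicates 1 and 3, with 89.3, 40.5, 78.4, 54.6 and 37.5 at 1 mg/kg and 32.2, 25.0, 28.4, 31.1 and 31.9 in controls. Plk2 read 64.1, 35.4, 121, 70.5 and 44.3 in those 1 mg/kg animals and 21.3 to 31.1 in controls, and Fas 20.04, 9.72, 30.8, 12.7 and 19.7 against 8.88 to 14.5. Ccng1 did not follow Havcr1 there: its 1 mg/kg animals lay between 1019 and 1197. Over all 57 arrays, with each group's mean removed, the correlation of log2 values with Havcr1 was 0.69 for Phlda3, 0.62 for Plk2, 0.41 for Fas, 0.03 for Ccng1 and 0.03 for Sesn1. Replicate 1 of 1 mg/kg on day 8 had the highest actin 3′/5′ ratio of all 57 arrays, 8.58, with 4.52 to 6.01 in its companions. Without it the correlation was 0.62 for Phlda3, 0.68 for Plk2, 0.40 for Fas, 0.02 for Ccng1 and 0.08 for Sesn1, over 56 arrays, an alternative chosen after seeing the data. Arrays share their scaling, and these correlations are descriptions. On day 26 Havcr1 read 327 in replicate 1 of 3 mg/kg, without which none of the 10 was called against controls that day. Its companions read 19.2 to 167. Replicate 1 also had the highest Plk2 (59.7) and Phlda3 (52.6) of its group, but not the highest Ccng1 (969). This was seen after the fact, and its part in the calls was not tested.

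**Figure D3:**
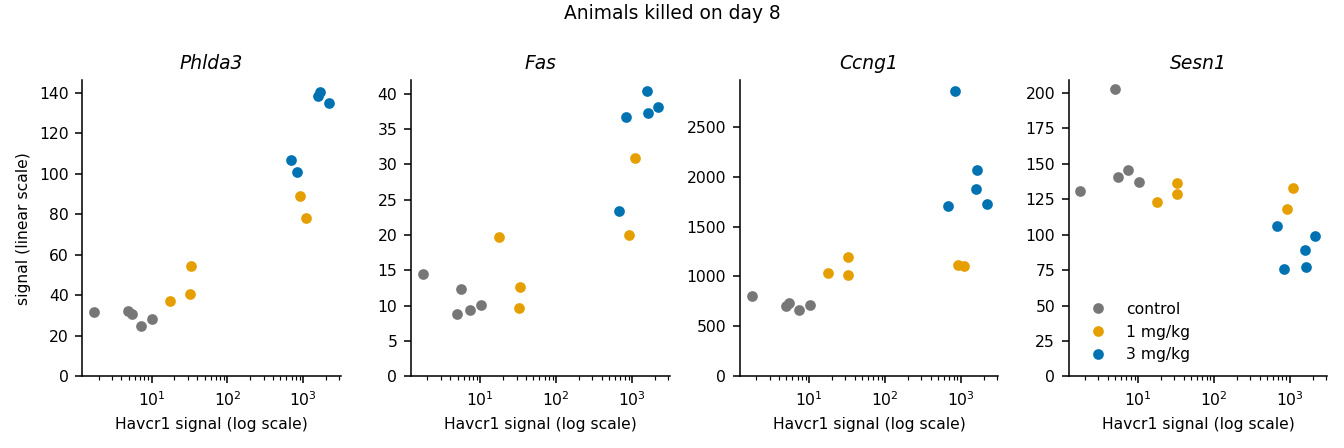
Signal of Phlda3, Fas, Ccng1 and Sesn1 (linear axes) against the Havcr1 signal (log axis) in the animals of day 8, 5 of each dose. The 2 animals of 1 mg/kg with Havcr1 at 912 and 1085 have the highest Phlda3 of their group, 89.3 and 78.4, while Ccng1 at that dose stays between 1019 and 1197.

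The members were chosen partly on their differences from same-day controls. Correlations among them that include those differences were largely set by that choice and are given as a description. After subtraction of the same-day control mean, Plk2 and Mdm2 correlated at 0.95 over 57 arrays, and Ccng1 and Plk2 at 0.94. With group means removed these values were 0.54 and 0.12. Sesn1 correlated with Ccng1 at -0.80 in the first measure and at -0.41 in the second. Sesn2 had low correlations with the others in the first measure, from 0.18 with Gadd45a to 0.49 with Fas among those that were positive, and -0.31 with Sesn1.

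Outside the set, the 5 genes most like Ccng1 in the first measure were Aen (0.94), which encodes a p53-induced nuclease, Ces2c (0.91), Thyn1 (0.90), Sulf2 (0.90) and Atp6v1d (0.89). Most like Sesn1 were Cnot2 (0.81), Igsf11 (0.80), Prkra (0.80), C1qtnf3 (0.80) and Psph (0.79). At 3 mg/kg on day 8 these 5 differed from controls by -0.38 for Cnot2, -0.44 for Igsf11, -0.38 for Prkra, -0.66 for C1qtnf3 and -1.08 for Psph. The genes least like Sesn1 were Rpl35a (-0.84), Rpl41 (-0.84), Rpl23 (-0.83), Ces2c (-0.82) and Rplp0 (-0.82), of which all but Ces2c encode ribosomal proteins. All of these rest on the same 57 arrays and on the large difference between doses.

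Of the 10 genes, 4 had further probe sets, so that the same transcript was measured again. The 2 others of Mdm2 were higher at 3 mg/kg too, by 1.10 ± 0.10, 1.07 ± 0.10 and 0.90 ± 0.10 on days 3, 5 and 8 for the brighter and by 0.50 ± 0.13, 0.56 ± 0.13 and 0.57 ± 0.13 for the dimmer, but on day 26 they stood at 0.07 ± 0.10 and 0.07 ± 0.13. The second probe set of Sesn2 was dim, with a median signal of 15.3 against 367 for the one reported. It gave 0.52 ± 0.12, 0.18 ± 0.12 and 0.66 ± 0.12 on days 3, 5 and 8. For Sesn1 the second probe set was dim, with a median signal of 11.5 against 141 for the one reported, and it gave 0.04 ± 0.10, -0.16 ± 0.10 and -0.16 ± 0.10, with overlapping groups on each day. The lower level of Sesn1 thus rests on 1 probe set, and the mean of both gave -0.20 on day 3, which was not called. The other 2 probe sets of Fas, with median signals of 1.59 and 5.36, did not pass the filter and gave differences from -0.02 to 0.14.

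**Figure D4:**
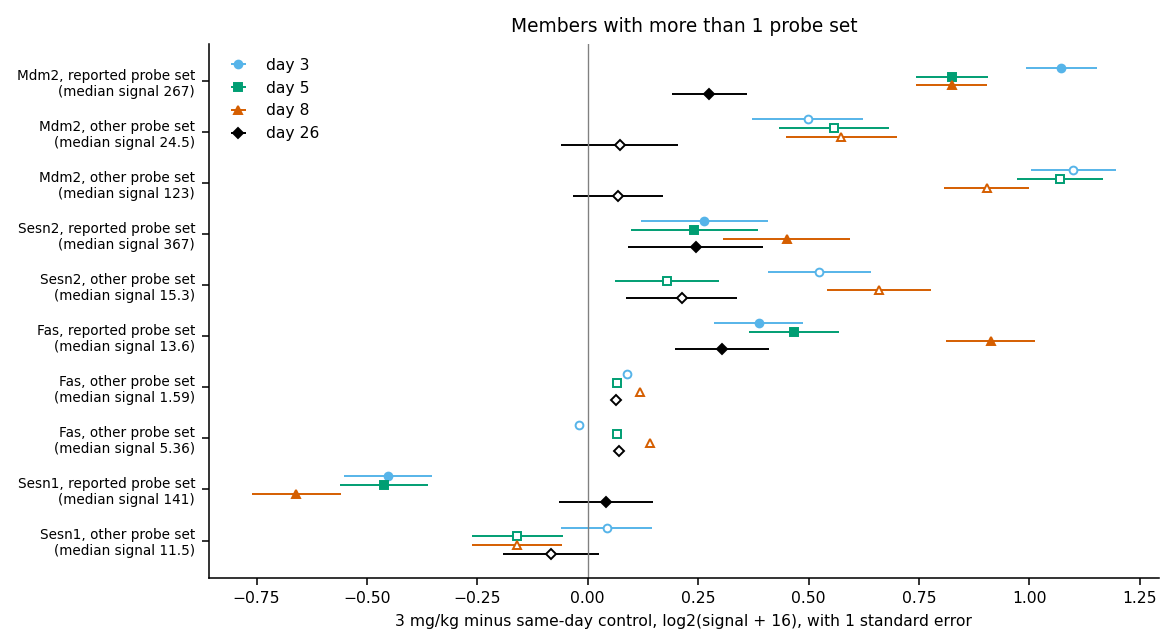
Difference of 3 mg/kg from same-day controls in log2(signal + 16) for each probe set of Mdm2, Sesn2, Fas and Sesn1, filled for the one reported and open for the others, with bars of 1 standard error (none for the 2 Fas probe sets under the filter). The second Sesn1 probe set lies between -0.16 and 0.04.

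Of 57 other genes of the p53 pathway listed from textbooks, 45 were tested. The lists were drawn up with earlier results of these data known and use the same arrays. Their counts and p-values are therefore no independent test. For 3 mg/kg against controls, 9 were higher and 1 lower on day 3, 13 and 0 on day 5, 17 and 6 on day 8, and 3 and 0 on day 26, where 9.85%, 8.8%, 37.3% and 0.753% of all genes were called. Their median difference was 0.07, 0.10, 0.18 and 0.05, beside 0.04, 0.00, 0.04 and 0.03 over all genes. For 1 mg/kg the counts were 1 and 0, 0 and 0, 3 and 0, and 0 and 0, against 0.0942%, 0.0171%, 0.522% and 0.00856% of all genes. Between the doses, 3 were higher and 1 lower at 3 mg/kg on day 3, 6 and 0 on day 5, 11 and 3 on day 8, and 0 and 0 on day 26, against 3.12%, 3.97%, 23.1% and 0% of all genes.

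Of 5 cell cycle targets tested, 4 were higher at 3 mg/kg on each of days 3, 5 and 8, beside the same shares of all genes. Cdkn1a, the cyclin-dependent kinase inhibitor p21, averaged 281, 311, 408 and 126 at 3 mg/kg, against 53.1, 50.1, 50.5 and 40.8 in controls, on days 3, 5, 8 and 26. Its differences were 2.09 ± 0.19, 2.29 ± 0.19, 2.63 ± 0.19 and 1.32 ± 0.20, the last with an adjusted p of 0.000401 in limma. At 1 mg/kg it was called on day 8, at 1.32 ± 0.19. Gtse1, a p53-binding protein of dividing cells, was higher by 0.95 ± 0.17 on day 5 and 1.18 ± 0.17 on day 8, and Sfn, the 14-3-3 protein sigma, by 0.72 ± 0.15 on day 3, 0.72 ± 0.15 on day 5 and 1.13 ± 0.15 on day 8. Among 10 death targets 3, 4 and 4 were higher on these days, where 9.85%, 8.8% and 37.3% of all genes were called. The median difference of these 10 was 0.11, 0.02 and 0.18, so on day 8 their count was near the share of all genes. Aen was higher by 0.90 ± 0.08 on day 3, 0.91 ± 0.08 on day 5 and 0.44 ± 0.09 on day 26 (adjusted p = 0.00853 in limma), and by 0.44 ± 0.08 at 1 mg/kg on day 3. Bbc3, the BH3-only protein PUMA, was higher by 0.77 ± 0.09 on day 3 at 3 mg/kg and by 0.49 ± 0.09 at 1 mg/kg on day 8.

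Regulators of p53 were mixed, with 1 higher and 1 lower of 10 on day 3 and 3 and 3 on day 8. Of all genes 9.85% and 37.3% were called on these days. Mdm4, the partner of Mdm2 that masks p53, was higher by 0.32 ± 0.10 on day 3 and 0.29 ± 0.10 on day 8 and stood at 0.14 ± 0.10 on day 5. Rchy1, another ubiquitin ligase for p53, was the lower one on day 3, and its difference from 1 mg/kg was -0.19 ± 0.05 (limma, adjusted p = 0.0421). Repair and nucleotide supply targets gave 0, 1 and 1 of 4 higher on days 3, 5 and 8, against 9.85%, 8.8% and 37.3% of all genes called. Of 6 metabolic and other targets, 1 was higher and 1 lower on day 8, against 37.3% of all genes called, and their median difference was 0.04. The higher one was Ephx1, the microsomal epoxide hydrolase, by 1.27 ± 0.16.

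Relatives of the members include Sesn3, the third sestrin, which differed at 3 mg/kg by 0.03 ± 0.12 on day 3 and -0.06 ± 0.12 on day 5 and was lower on day 8, at -0.31 ± 0.12. Phlda2, a relative of Phlda3, was higher by 1.62 ± 0.18 on day 8, and Gadd45b by 0.85 ± 0.15 on day 5, 0.64 ± 0.16 on day 26 (limma, adjusted p = 0.0408) and, at 1 mg/kg, 0.69 ± 0.15 on day 8. From day 8 to day 26 the difference from controls changed for 12 of the 45, downwards in 10, against 15% of all genes, among them Phlda2 by -1.83 ± 0.27 (limma, adjusted p = 4.27e-06), Ephx1 by -1.37 ± 0.23 (adjusted p = 3.35e-05), Cdkn1a by -1.31 ± 0.28 (adjusted p = 0.000743) and Gtse1 by -1.12 ± 0.25 (adjusted p = 0.00131). From day 5 to day 8 it changed upwards in 5 and downwards in 4, against 16.3% of all genes, with Phlda2 at 0.96 ± 0.26 (limma, adjusted p = 0.00799), Ephx1 at 0.77 ± 0.22 (adjusted p = 0.0141), Gadd45b at -0.64 ± 0.22 (adjusted p = 0.0355) and Tp53inp2 at -0.51 ± 0.11 (adjusted p = 0.000649). From day 3 to day 5 it changed for Rchy1 alone, against 1.52% of all genes, by 0.30 ± 0.08 (adjusted p = 0.0345 in limma). In control rats, Gadd45b was lower on day 26 than on day 3, with a difference of -0.57 ± 0.16 (limma, adjusted p = 0.047), Bid was higher by 0.34 ± 0.09 (adjusted p = 0.0321) and Xpc by 0.27 ± 0.08 (adjusted p = 0.0471).

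**Figure D5:**
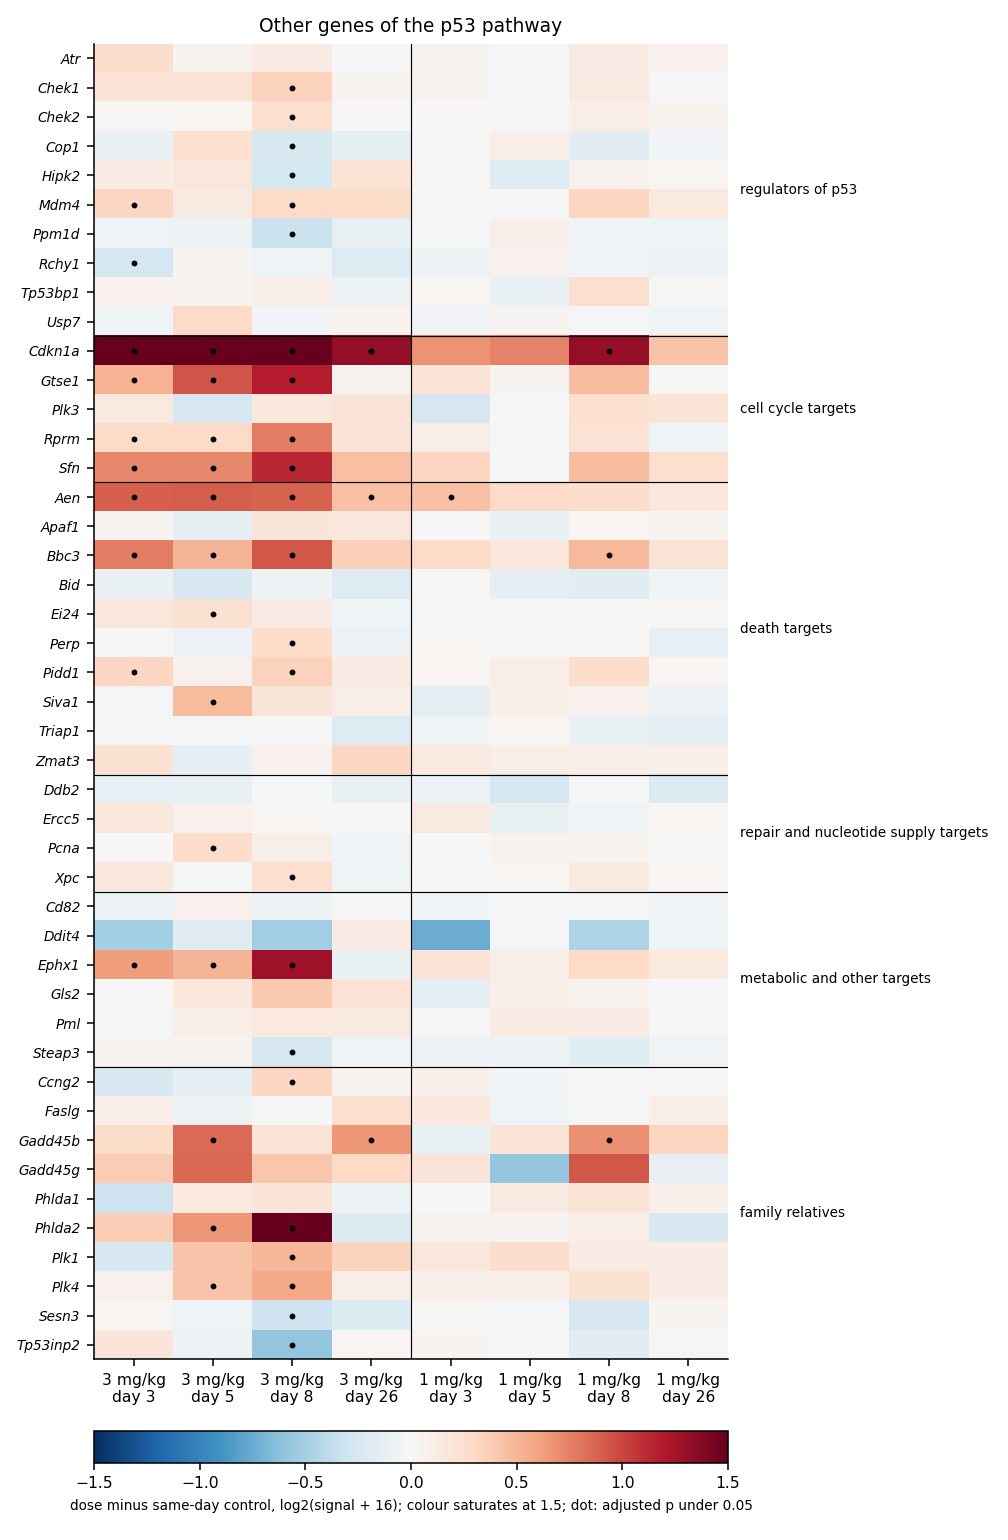
Differences from same-day controls in log2(signal + 16) for the 45 other pathway genes, by list, with 3 mg/kg in the left 4 columns and 1 mg/kg in the right 4. Dots mark an adjusted p under 0.05; Cdkn1a has the largest values, up to 2.63.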

How the data were processed

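Total RNA from cortex-enriched kidney of 57 rats was hybridised, as biotin-labelled RNA, to Affymetrix Rat 230 2.0 arrays. Each deposited value is the linear intensity of a probe set on an array. Per the submitters' processing notes the tool was MAS5, of a version not given in the sources used here, and each array's mean without the lowest and highest 2% was 99.99. Groups, doses, days and replicate numbers came from the labels. Of 31099 probe sets, 57 controls were left out, 436 had several gene symbols and 9780 none, and these named no gene. The platform annotation's symbols were updated by Entrez number for 20758 probe sets and by accession for 2, and 66 kept theirs.

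Values were taken as log2(signal + 16). Probe sets above the 40th percentile of their array on at least 3 arrays were kept (21829), and the one with the highest mean stood for each gene, which gave 11683 genes and kept all 10 members. Differences between group means were tested with limma 3.58.1 in R 4.3.3 over all 57 arrays, with an intensity trend, two-sided, with Benjamini-Hochberg adjustment within each comparison and a threshold of 0.05. Standard errors pool the spread over all groups, while an SD belongs to its own group. The script was tested on simulated data. The number of arrays limits the precision.

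The members, gene lists, tests and the rule for named genes were chosen with earlier results of these data known. All members are named, as are Cdkn1a, Mdm4 and Sesn3 among the pathway genes, with up to 4 called pathway genes of the largest difference per comparison, the 5 genes most like Ccng1 and the 5 most and least like Sesn1, and Havcr1 on day 8. Havcr1 on day 26 was added after seeing the data. Promoters are from RefSeq, build GRCr8. Gene spans and protein sequences were not used here. Alternatives covered the offset, scaling, filter, choice of probe set, variance model, array weights, a replicate block, the actin ratio as a covariate, the groups in the fit and leaving out each array.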

Additional observations from a re-analysis of the deposited data

Results flagged for a closer look

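In 110 combinations of member and group with 4 or 5 animals, 8 had an animal standing apart from its group by Dixon's criterion at 95%, a criterion that chance meets in about 5% of groups. Plk2 was 104 in replicate 2 of 3 mg/kg on day 5, against 129 to 134 in its companions. Mdm2 was 172 in replicate 1 of the day 8 controls (others 219.6 to 235), 215 in replicate 2 of 1 mg/kg on day 26 (others 244 to 254) and 279 in replicate 5 of 3 mg/kg on day 26 (others 263 to 267). Sesn1 was 158 in replicate 1 of 3 mg/kg on day 26, with the others at 136 to 141, and 203 in replicate 1 of the day 8 controls, with the others at 131 to 146. Tp53inp1 was 8.49 in replicate 5 of 3 mg/kg on day 26, where the others had 16.1 to 19.3. Fas was 23.4 in replicate 3 of 3 mg/kg on day 8, where the others had 36.7 to 40.3.

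The difference between 3 mg/kg and controls changed between days past the limma threshold for 6 members from day 8 to day 26. These values are built from the contrasts on which the members were chosen, so they are a description and no independent test. The change was -1.02 for Ccng1, -1.24 for Plk2, -0.98 for Phlda3, -0.55 for Mdm2 and -0.61 for Fas, and 0.70 for Sesn1. From day 5 to day 8 it was 0.45 for Fas.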

How the results depend on the processing

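The counts of members called describe the contrasts on which the set was chosen and those built from the same arrays. In these counts, 207 of 224 values from 14 alternative settings and 16 comparisons stayed within 1.5 times the reported count. The exceptions were as follows. For 3 mg/kg against 1 mg/kg on day 26 (0 reported), 1 was called with no offset, quantile normalization, every probe set, the replicate block or the compared groups alone, and 2 with array weights. For the change from day 5 to day 8 (1 reported), 0 were called with no offset, quantile normalization, the compared groups alone, or the filter at the 60th percentile, which removes Fas and Tp53inp1. For 3 mg/kg against controls on day 26 (3 reported), 1 was called with an offset of 64, the actin covariate or the compared groups alone. For 1 mg/kg against controls, 1 was called with an offset of 64 on day 5 (2 reported) and 1 with the compared groups alone on day 8 (4 reported). For 3 mg/kg against 1 mg/kg on day 3 (4 reported), 8 were called with array weights or the compared groups alone. Except where a fit holds fewer genes or arrays, the cause was not tested.

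With 1 array left out at a time, the count ranged from 7 to 8, 8 to 9, 8 to 10 and 0 to 3 for 3 mg/kg against controls on days 3, 5, 8 and 26, from 3 to 4, 0 to 2, 2 to 5 and 0 to 0 for 1 mg/kg against controls, from 4 to 4, 4 to 6, 6 to 8 and 0 to 1 for 3 mg/kg against 1 mg/kg, from 0 to 0, 0 to 2 and 6 to 7 for the successive changes between days, and from 0 to 1 for controls of day 26 against day 3.

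Sesn1 kept its sign and its call against controls on days 5 and 8 under every alternative. On day 3 it lost the call with the mean of its probe sets (-0.20) and kept it under every other alternative. Against 1 mg/kg on day 5 it lost the call with the replicate block, the actin covariate and the compared groups alone, and on day 3 it was called with array weights and the compared groups alone. Its uncalled differences changed sign with the mean of both probe sets: -0.021 and -0.040 for 3 and 1 mg/kg against controls on day 26, 0.042 for 1 mg/kg on day 5 and 0.019 for 3 mg/kg against 1 mg/kg on day 26. With 1 array left out, 3 mg/kg against controls on day 26 ran from -0.044 (without control replicate 1) to 0.205 (without control replicate 2), and was -0.029 without control replicate 4.

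Replicate numbers are shared between groups. Over 54 same-numbered pairs, 7 deviated together at a correlation over 0.1, and in 0 of 12 comparisons did every pair, so the numbers were not treated as pairs. That criterion is hard to meet, so missing it says little about a shared effect of the number. For 3 mg/kg against controls the pairs ran from 0.01 to 0.21 on day 5 and from -0.17 to 0.03 on day 26. Replicate 1 was lowest in 6 of 12 groups for Plk2 and for Mdm2, and replicate 3 in 6 for Ccng1. The replicate block changed 1 other count by 1, to 4 for 3 mg/kg against 1 mg/kg on day 5. Dim genes, Fas and Tp53inp1, are limited by their signal.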
